A study of Mus musculus with 8 samples.

Results

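The replication-dependent histone genes were taken as every gene whose symbol begins with Hist1h, Hist2h, Hist3h or Hist4h in the counts of 8 mouse prostate tumors, which gave 70 genes of 38115 listed. By symbol, 6 encoded the linker histone H1, 20 the core histone H2A, 19 H2B, 12 H3 and 13 H4.

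These genes supply most of the histone protein that packages newly copied DNA. The core histones H2A, H2B, H3 and H4 form the nucleosome, and H1 binds the DNA that enters and leaves it. Their transcription and the lifetime of their mRNA are tied to S phase, and the mRNA usually ends in a conserved stem-loop, bound by the protein Slbp, in place of a poly(A) tail. Libraries that start from total RNA and remove ribosomal RNA keep such mRNA, which selection for poly(A) would lose.

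RNA was sequenced from orthotopic tumors of Myc-CaP, a murine prostate cancer cell line driven by Myc. The androgen sensitive line Myc-CaP/AS or the castrate resistant line Myc-CaP/CR was injected into the anterior prostate lobes of FVB male mice, which were intact or had been castrated surgically beforehand, and primary and metastatic tumors were collected. Each of the 4 groups (primary AS, metastatic AS, primary CR, metastatic CR) held 2 tumors, named here AS1, AS2, CR1 and CR2 within each tumor type. The labels call the metastases matched without saying to which primary tumor, and the organ it came from and the castration status of the host are not given either, so equal numbers carry no pairing. Each phenotype was represented by a single line, and nothing in the labels says that the 2 tumors of a group came from separate animals, so p-values measure only the spread between these tumors.

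Total counts ranged from 20905806 to 91886163 per tumor, and the histone genes took between 0.0333% (primary CR2) and 0.197% (primary CR1) of them. In primary CR2, metastatic CR1 and metastatic CR2 the single gene Lars2 took 8.53 to 9.54% of all counts, against 0.0259 to 0.140% in the other 5 tumors, and these 3 were also the shallowest, with at most 40586710 counts. All 3 are castrate resistant, so this property and the phenotype cannot be told apart except through primary CR1. Among epithelial markers Krt8 ranged from 36.4 to 710.4 normalized CPM (counts scaled to library size), whereas Krt18, Epcam and Cdh1 were at most 0.606 in every tumor. Summed lymphocyte and lung epithelial markers were at most 0.814, fibroblast markers lay between 52.5 and 106.5, endothelial markers between 41.8 and 87.8, macrophage markers between 118.9 and 324.0 and erythroid markers between 45.4 and 251.5, and their part in the histone results was not tested. The hepatocyte list ranged from 95.0 to 10086 through Fgb, while Alb was at most 3.18. In such bulk samples fewer cells in S phase and less histone mRNA per cell cannot be told apart.

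Of the 70 genes, 56 lie on chromosome 13, of which 55 fall in the Hist1 cluster between 21715763 and 23934851. The other 14 lie on chromosomes 3 (10 genes, the Hist2 cluster), 11 (3 genes) and 6 (Hist4h4 alone). Coordinates are of GRCm38 (mm10), from GENCODE M21, in which 66 members were protein-coding genes, 3 were pseudogenes (Hist1h2aj, Hist1h2al and Hist3h2bb-ps) and the identifier listed as Hist2h2bb carried a long noncoding RNA. All 20 H2A genes overlapped another annotated gene, mostly a short one on the opposite strand. The kit marked strand, but whether strand was used in counting is not given in the sources used here, so reads of such partners may be included.

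The stem-loop is shown because it is the feature that sets these mRNAs apart. The histone stem-loop motif, with the arms and loop shown in capitals below, was searched on the sense strand in the 150 bases after the stop codon. It was found in 42 of the 51 members with at least 40 annotated bases there (82.4%), 22 to 59 bases after the stop codon, and in 2 of 20839 other protein-coding genes (0.00960%). The sequences below are from GENCODE M21 transcripts, with the stem-loop in capitals and the flanking bases in lower case.
Hist1h1c: aaaaGGCTCTTTTCAGAGCCaccac
Hist3h2a: caaaGGCTCTTTTCAGAGCCaccca
Hist1h2bg: caaaGGCTCTTTTCAGAGCCaccca
Hist1h3f: aaacGGCTCTTTTAAGAGCCacctc
Hist1h4d: caaaGGCCCTTTTCAGGGCCactac
Hist2h4: taacGGCCCTTTTTAGGGCCaacca
The 9 H4 genes with a match carried arms that begin with GGCC, and every match in the other classes began with GGCT. No match lay in this window for Hist1h2bc and Hist2h2be, whose annotated transcripts run far beyond the stem-loop position and which are known to make polyadenylated mRNA as well. No match was found for Hist1h1a, Hist1h2bq, Hist1h2br, Hist1h3g, Hist1h4a, Hist1h4b and Hist1h4j either.

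Promoters were read from RefSeq (GRCm38.p6), in which 59 members matched, as the 250 bases before the start site. Both strands were searched for the octamer ATTTGCAT, the CCAAT box as CCAAT, the TATA box as TATAAA and the H1 AC box as AAACACA. The octamer occurred in 7 of 16 H2A and 6 of 15 H2B promoters and in none of the 6 H1, 10 H3 and 12 H4 promoters, against 1.60% of all 32851 promoters. A CCAAT box occurred in all H1, H2A and H2B promoters, in 8 of 10 H3 promoters and in 3 of 12 H4 promoters, against 33.8% of all promoters. The AC box occurred in 5 of 6 H1 promoters, in 2 H2A and 2 H2B promoters and in none of H3 and H4, against 6.25% of all. A TATA box was present in 4 of 6 H1, 7 of 16 H2A, 8 of 15 H2B, 4 of 10 H3 and 6 of 12 H4 promoters, against 12.4% of all. Windows of genes that start close together on opposite strands overlap, so their motifs can be counted in both classes. The same octamer was counted for Hist1h2aa and Hist1h2ba, for Hist1h2ae and Hist1h2bg, and for Hist1h2ah and Hist1h2bk. Hist1h2aa and Hist1h2ba also shared an AC box. The 4 promoters below belong to genes whose levels are given later: the H1 gene with the highest count, a divergent promoter shared by Hist1h2ai and Hist1h2bl, a divergent promoter shared by Hist2h2ac and Hist2h2be, and the H4 gene with the highest count. Capitals mark the motifs named above.
Hist1h1c, chr13:23738557-23738806, plus strand: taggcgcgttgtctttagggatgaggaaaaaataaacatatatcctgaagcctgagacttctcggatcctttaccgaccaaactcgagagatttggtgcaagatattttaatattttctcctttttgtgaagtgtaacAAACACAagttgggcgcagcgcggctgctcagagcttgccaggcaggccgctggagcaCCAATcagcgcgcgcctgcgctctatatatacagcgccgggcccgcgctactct
Hist1h2ai, chr13:21716162-21716411, plus strand: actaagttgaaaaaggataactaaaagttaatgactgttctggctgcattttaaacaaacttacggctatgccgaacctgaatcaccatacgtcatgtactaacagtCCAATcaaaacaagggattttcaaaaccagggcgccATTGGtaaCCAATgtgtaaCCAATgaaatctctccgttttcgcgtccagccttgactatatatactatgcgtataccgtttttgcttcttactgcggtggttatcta
Hist2h2ac, chr3:96220881-96221130, minus strand: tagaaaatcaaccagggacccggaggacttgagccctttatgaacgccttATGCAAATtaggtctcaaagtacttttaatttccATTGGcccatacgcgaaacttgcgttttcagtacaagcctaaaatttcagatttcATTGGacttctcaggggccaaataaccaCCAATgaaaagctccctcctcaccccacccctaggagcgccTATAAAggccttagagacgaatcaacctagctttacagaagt
Hist1h4j, chr13:21734784-21735033, plus strand: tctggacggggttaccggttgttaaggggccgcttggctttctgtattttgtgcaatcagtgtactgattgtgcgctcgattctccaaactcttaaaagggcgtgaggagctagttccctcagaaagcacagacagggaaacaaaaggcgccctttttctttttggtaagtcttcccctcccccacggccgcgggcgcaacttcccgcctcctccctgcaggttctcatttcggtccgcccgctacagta
The Hist2h2ac window held an octamer, 3 CCAAT boxes and a TATA box, and the Hist1h2ai window held 4 CCAAT boxes. None of the 4 motifs was found in the Hist1h4j window. That window ended at 21735033, before the GENCODE start of Hist1h4j at 21735064, and the bases between were not searched. RefSeq and GENCODE starts differ for some members, so a motif not found in a window is not shown to be absent from the promoter.

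Because the coding sequences of a class are nearly the same, reads cannot always be assigned to 1 gene. Each member's longest transcript was divided into windows as long as a read, and a window was called unique when no annotated transcript of a gene elsewhere matched it with up to 2 mismatches on either strand. The median share of unique windows was 98.9% in H1, 54.0% in H4, 39.6% in H2B, 33.0% in H3 and 10.5% in H2A, leaving out Hist2h2bb. At least 50% unique windows were found for 28 members. These include Hist2h2bb, whose windows are those of the long noncoding RNA that its identifier carries. The methods describe mapping with Bowtie to a single location, whereas the submitters' processing notes name TopHat2. The 9 members with no unique window (Hist1h2ai, Hist1h2al, Hist1h2an, Hist1h2bl, Hist1h3h, Hist1h3i, Hist1h4m, Hist2h2aa1 and Hist2h2aa2) nevertheless held 27.9 to 33.1% of all member counts, so how reads shared between copies were assigned is uncertain for them. Levels of single H2A, H2B and H3 genes are given with this limit, and sums over a class depend less on how reads were shared out between genes of the same class.

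**Figure D1:**
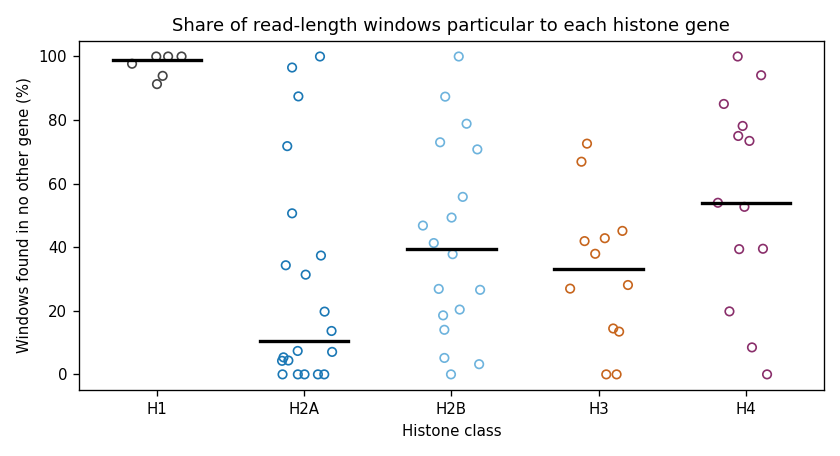
Share of read-length windows found in no gene elsewhere (y axis, percent) for each histone gene with a matching annotated name (points), by class (x axis). Black bars are class medians, from 10.5% in H2A to 98.9% in H1.

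Levels are given as CPM, with library sizes scaled by TMM, the trimmed mean of M-values. Summed over all 70 genes, the level was 654 and 702 CPM in primary AS1 and AS2, 1179.5 and 1149.6 in metastatic AS1 and AS2, 1837 and 411 in primary CR1 and CR2, and 769 and 999 in metastatic CR1 and CR2. Primary CR1 was the highest and primary CR2 the lowest of all 8 tumors, so the 2 tumors of this group spanned the whole range. Of the 68 members that passed the filter on low counts, 60 were highest in primary CR1, as were 17.5% of all genes tested, and 52 were lowest in primary CR2, as were 14.8% of all genes tested. The ratio of primary CR1 to primary CR2 had a median of 5.46 over these 68 members, and by class it was 5.37 in H1, 4.09 in H2A, 8.89 in H2B, 6.47 in H3 and 7.74 in H4. Ratios of single members are imprecise where primary CR2 had few counts, such as 3 for Hist1h2an and 6 for Hist1h2bk.

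**Figure D2:**
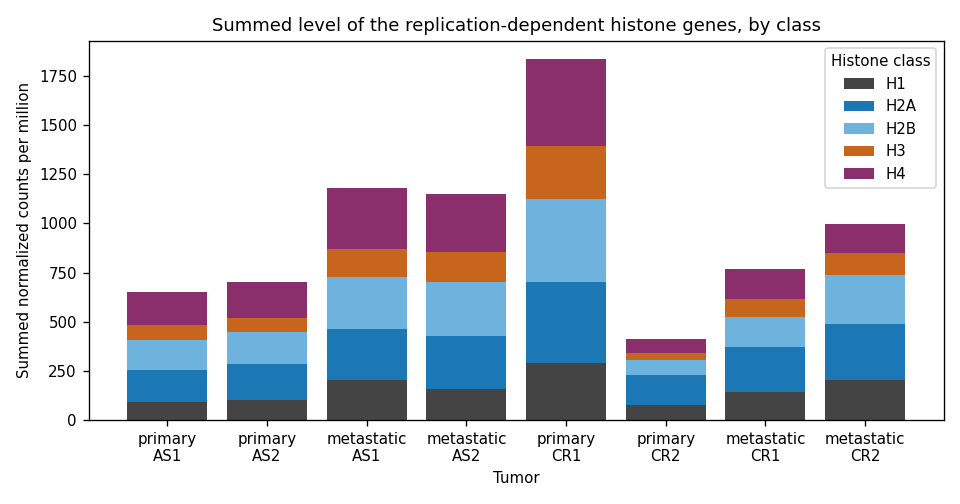
Summed level in normalized CPM (y axis) of the 70 histone genes in each tumor (x axis), stacked by class. The sum ran from 411 in primary CR2 to 1837 in primary CR1, and both metastatic AS tumors lay above both primary AS tumors.

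Each class was unevenly divided among its genes. Per kilobase of annotated length (RPKM), the highest level was 39.4 in H1 (Hist1h1c), 199.9 in H2A (Hist1h2al), 165.2 in H2B (Hist1h2bl), 109.5 in H3 (Hist1h3h) and 93.8 in H4 (Hist1h4j), against class medians of 16.1, 3.63, 4.12, 5.45 and 13.6. These values depend on annotated length, such as 339 bases for Hist1h2al and 7425 for Hist1h1d. Hist1h1d had a mean of 33.5 CPM but 4.51 RPKM, against 61.4 CPM and 39.4 RPKM for Hist1h1c. Hist1h2al is annotated as a processed pseudogene with no unique window, and its reads could come from any H2A gene of like sequence. The testis genes were at or near 0: Hist1h1t had 13 counts and Hist1h2aa 1 count over all 8 tumors, and neither passed the filter on low counts, while the H2B gene Hist1h2ba had at most 0.267 CPM.

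Metastatic tumors were compared with primary tumors to ask whether histone mRNA changed with spread. Over all 8 tumors 0 of 68 members tested passed an adjusted p of 0.05 in edgeR's quasi-likelihood test (Benjamini-Hochberg), as did 0 of all 17104 genes (0%), and DESeq2 also called 0 members. At an unadjusted p under 0.05 there was 1 member (Hist1h2bc, higher), where 2.68% of all genes passed and 1.56% passed as higher. The median log2 fold change was 0.30 over the members and -0.03 over all genes tested. Above 0 were 58 members and below 0 were 10, where 46.2% of all genes were above 0. No member had metastatic and primary tumors that did not overlap, against 1.7% of all genes. By class the median was 0.48 in H1, 0.40 in H2A, 0.35 in H2B, 0.29 in H3 and 0.15 in H4.

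The spread of the primary CR tumors weighed on this comparison. Without primary CR1 the median over members was 1.10, and 43 of 68 members had an unadjusted p under 0.05, all higher in metastases, where 5.43% of all genes passed and 3.48% passed as higher. None of these passed adjustment in edgeR's quasi-likelihood test. Without primary CR2 the median was 0.06 and no member had an unadjusted p under 0.05, against 4.52% of all genes.

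Within the androgen sensitive tumors most histone genes lay higher in both metastases. Both metastatic AS tumors lay above both primary AS tumors for 62 of 68 members, against 19.1% of all genes tested. The median log2 fold change was 1.12 over members and 0.00 over all genes, and 54 members had an unadjusted p under 0.05, all higher in metastases, where 7.28% of all genes passed and 4.28% passed as higher. None passed an adjusted p of 0.05, as was true of all 17466 genes in this fit of 2 against 2 tumors (0%). The median was 1.06 in H1, 1.22 in H2A, 1.16 in H2B, 1.29 in H3 and 0.86 in H4. Within the CR tumors alone the median over members was -0.35, the opposite sign, with primary CR1 and CR2 as the primary tumors.

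Among the H1 genes the change within the androgen sensitive tumors varied. Hist1h1b, a linker histone variant of dividing cells, had 5.14 and 5.60 CPM in primary AS1 and AS2, 20.8 and 18.04 in metastatic AS1 and AS2, 35.4 and 6.59 in primary CR1 and CR2, and 18.2 and 24.4 in metastatic CR1 and CR2. Both AS metastases lay well above both AS primaries, and primary CR1 was the highest of all. Its log2 fold change between metastatic and primary AS tumors was 1.87 (SE 0.19, adjusted p = 0.182) in edgeR's quasi-likelihood test (Benjamini-Hochberg). Hist1h1c, the H1 gene with the highest level and one that also makes polyadenylated mRNA, had 43.8 and 55.4 CPM in primary AS1 and AS2, 77.8 and 59.1 in metastatic AS1 and AS2, 101.2 and 34.8 in primary CR1 and CR2, and 47.1 and 72.3 in metastatic CR1 and CR2. Its AS metastases lay above its AS primaries by a smaller margin, with a log2 fold change of 0.48 (SE 0.21, adjusted p = 0.700) in the same test.

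Among the core histones Hist1h4j, the most abundant H4 gene, had 60.2 and 56.6 CPM in primary AS1 and AS2, 111 and 104 in metastatic AS1 and AS2, 158 and 14.2 in primary CR1 and CR2, and 39.3 and 37.5 in metastatic CR1 and CR2. Both AS metastases were above both AS primaries, and primary CR1 was the highest and primary CR2 the lowest. In the androgen sensitive tumors alone its log2 fold change was 0.90 (SE 0.15, adjusted p = 0.213) by edgeR's quasi-likelihood test (Benjamini-Hochberg), and over all 8 tumors it was 0.01 (SE 0.64, adjusted p = 0.999). The most abundant H3 gene, Hist1h3h, had 26.3 and 25.9 CPM in primary AS1 and AS2, 57.1 and 61.7 in metastatic AS1 and AS2, 115 and 9.91 in primary CR1 and CR2, and 32.2 and 32.3 in metastatic CR1 and CR2, with the same order of AS tumors and of primary CR1 and CR2. The members that were not higher in AS metastases were Hist2h3c1, Hist2h2be and Hist2h2ab, at log2 fold changes of -0.34, -0.06 and -0.03, none of which passed the test.

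Hist1h2bc, an H2B gene that also makes polyadenylated mRNA, was the member with the smallest p over all 8 tumors. It had 18.3 and 22.7 CPM in primary AS1 and AS2, 20.7 and 26.3 in metastatic AS1 and AS2, 15.0 and 8.67 in primary CR1 and CR2, and 20.9 and 63.5 in metastatic CR1 and CR2. Metastatic CR2 stood far above the rest, and the other 7 tumors did not separate by tumor type. Its log2 fold change between metastatic and primary tumors was 1.02 (SE 0.42, adjusted p = 0.997) by edgeR's quasi-likelihood test (Benjamini-Hochberg), and 0.48 without metastatic CR2. The next smallest p-values among members with a positive change were those of Hist1h3g and Hist3h2a, at log2 fold changes of 0.91 and 0.48. The smallest with a negative change were those of Hist2h2ab, Hist4h4 and Hist2h2be, at -0.71, -0.29 and -0.17. All had an adjusted p of 0.997.

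**Figure D3:**
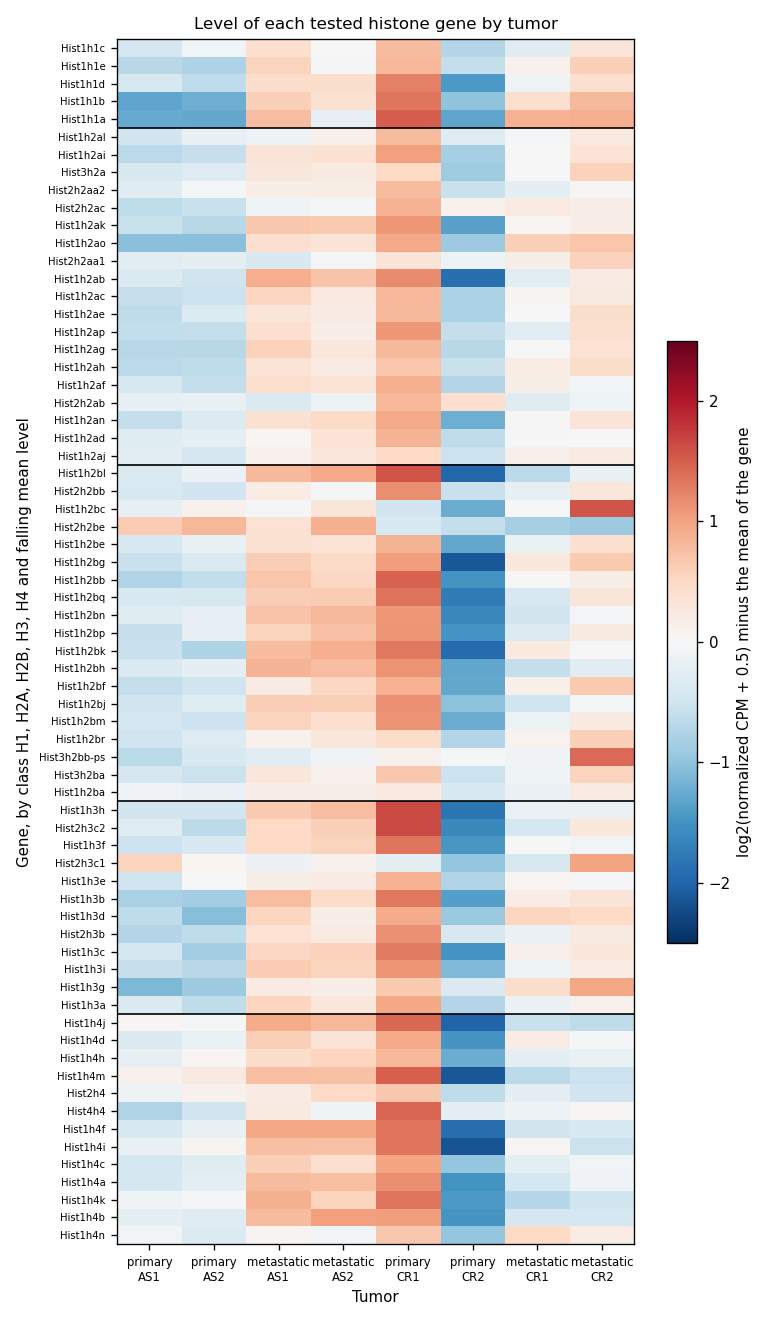
Level of the 68 tested histone genes (rows, by class and falling mean) in each tumor (columns), as log2(normalized CPM + 0.5) minus the mean of the gene. Red is above and blue below the mean, primary CR1 was the highest tumor for 60 genes, and both metastatic AS tumors lay above both primary AS tumors for 62.

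Castrate resistant tumors were compared with androgen sensitive tumors, with tumor type as a covariate. Of 17104 genes tested 12.2% passed an adjusted p of 0.05, and 6.01% passed as lower, whereas 1 of 68 members passed (Hist2h2be, lower). At an unadjusted p under 0.05 there were 5 members, 4 of them higher, where 28.8% of all genes passed and 14.3% passed as higher. DESeq2 called 4 members (Hist2h2be, Hist2h2ac, Hist3h2bb-ps and Hist1h3g), where it called 10% of all genes, and the fit with no low-count filter called 5 (Hist2h2be, Hist3h2bb-ps, Hist1h1a, Hist1h1b and Hist1h3g), where 9.72% of all genes passed. The median log2 fold change was 0.35 over members and -0.01 over all genes. It was 0.55 in H1, 0.42 in H2A, 0.17 in H2B, 0.36 in H3 and -0.24 in H4. All 5 H1 and all 19 H2A genes tested were above 0 while 9 of 13 H4 genes were below, where 49.2% of all genes were above 0. Genes of a class can share reads, so these are not independent observations.

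Hist2h2be encodes an H2B variant known for mRNA that is also polyadenylated, and lies at chr3:96221119-96223738 on the plus strand as a gene whose windows were all unique. It had 16.1 and 18.5 CPM in primary AS1 and AS2, 13.4 and 19.4 in metastatic AS1 and AS2, 7.75 and 6.64 in primary CR1 and CR2, and 5.59 and 5.23 in metastatic CR1 and CR2. Every CR tumor lay below every AS tumor, primary CR1 included. The mean was 16.9 ± 2.69 CPM in AS and 6.30 ± 1.14 in CR tumors (SD, n = 4 each), and the log2 fold change was -1.43 (SE 0.19, adjusted p = 0.00474) by edgeR's quasi-likelihood test (Benjamini-Hochberg). It kept its direction and passed adjustment without each tumor in turn, at -1.29 to -1.52. In primary tumors alone where 0.0233% of all genes and 0 members passed, it was -1.26 (adjusted p = 0.290) and without the 3 tumors of high Lars2, which leaves primary CR1 as the only CR tumor, it was -1.15 (adjusted p = 0.106).

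Hist2h2ac, an H2A gene that starts 238 bases from Hist2h2be on the opposite strand (the third promoter above), went the other way. It had 5.79 and 6.10 CPM in primary AS1 and AS2, 8.52 and 9.01 in metastatic AS1 and AS2, 17.4 and 10.1 in primary CR1 and CR2, and 10.7 and 10.5 in metastatic CR1 and CR2. Every CR tumor lay above every AS tumor, and primary CR1 was the highest. Its log2 fold change was 0.74 (SE 0.25, adjusted p = 0.0916) by edgeR's quasi-likelihood test (Benjamini-Hochberg), so it did not pass, whereas DESeq2 called it. The ratio of Hist2h2be to Hist2h2ac was 1.57 to 3.04 in AS tumors and 0.446 to 0.660 in CR tumors. Only 37.4% of the Hist2h2ac windows were unique, so its level and this ratio depend in part on how shared reads were assigned. The CR and AS tumors did not overlap for 3 members in all, Hist2h2be below and Hist2h2ac and Hist3h2bb-ps above, against 18.9% of all genes tested, 9.82% below and 9.09% above.

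Hist1h3g, an H3 gene of low level, had 0.558 and 0.727 CPM in primary AS1 and AS2, 2.14 and 2.04 in metastatic AS1 and AS2, 3.13 and 1.29 in primary CR1 and CR2, and 2.63 and 3.98 in metastatic CR1 and CR2. The CR tumors were not separated from the AS tumors, since primary CR2 lay below both AS metastases. The log2 fold change was 1.22 (SE 0.38, adjusted p = 0.0712) by edgeR's quasi-likelihood test (Benjamini-Hochberg). Hist3h2bb-ps, a pseudogene, did not exceed 0.606 CPM outside metastatic CR2, where it reached 2.22, and its log2 fold change was 1.54 (SE 0.51, adjusted p = 0.0836) in the same test. DESeq2 called both. After Hist2h2be the smallest p-values with a negative change were those of the H4 genes Hist2h4 and Hist1h4j, at log2 fold changes of -0.28 and -0.46, which did not pass.

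This comparison rested on which CR tumors entered it. Without primary CR1, 25 of 68 members passed an adjusted p of 0.05, all lower in CR tumors, where 23.8% of all genes passed and 13.3% passed as lower. These were 11 of 13 H4 genes, 9 of 19 H2B genes, 3 of 12 H3 genes, 2 of 19 H2A genes and 0 of 5 H1 genes tested, and the median over members was -0.52. The CR tumors left were the 3 of high Lars2, also the shallowest, so phenotype cannot be told apart from these properties here. Without the 3 tumors of high Lars2, an alternative chosen after the data were seen, 36 members passed, all higher in the 1 remaining CR tumor, where 2.05% of all genes passed and 1.4% passed as higher. The median was then 1.69, and this lone tumor was assumed to vary like the other groups.

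Within the metastases, where both CR tumors had high Lars2, 5 of 13 H4 genes passed the test as lower in CR tumors. Both metastatic CR tumors lay below both metastatic AS tumors for 37 of 68 members, against 32.4% of all genes tested, and by class this held for 11 of 13 H4, 8 of 12 H3, 10 of 19 H2B, 7 of 19 H2A and 1 of 5 H1 genes. The median log2 fold change was -1.01 in H4, -0.55 in H2B, -0.40 in H3, -0.16 in H2A and 0.09 in H1. In this fit of 2 against 2 tumors 8 members passed an adjusted p of 0.05, all lower, where 5.49% of all genes passed and 2.86% passed as lower. They were the H4 genes Hist1h4b, Hist1h4f, Hist1h4j, Hist1h4k and Hist1h4m, the H3 gene Hist1h3h and the H2B genes Hist1h2bl and Hist2h2be. Of these, Hist2h2be (100%) and Hist1h4j (73.4%) had at least 50% unique windows.

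Hist1h4j, with the values above, was lower by a log2 fold change of -1.48 (SE 0.16, adjusted p = 0.0156) in metastatic CR tumors by edgeR's quasi-likelihood test (Benjamini-Hochberg). Hist1h4f, a further H4 gene of the Hist1 cluster, had 5.63 and 6.56 CPM in primary AS1 and AS2, 15.2 and 15.3 in metastatic AS1 and AS2, 19.7 and 1.68 in primary CR1 and CR2, and 5.35 and 5.69 in metastatic CR1 and CR2. Both CR metastases were close to the AS primaries and below the AS metastases, and the log2 fold change between metastases was -1.46 (SE 0.20, adjusted p = 0.0272) in the same test. Hist1h1b, with the values above, did not separate by phenotype in metastases, at 0.14 (SE 0.22, adjusted p = 0.718). Whether the classes differed from each other in this comparison was not tested.

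The balance between classes showed the same division of tumors. The summed level of H4 was 1.52 to 1.89 times that of H1 in the 4 AS tumors and primary CR1, and 0.728 to 1.07 times in primary CR2, metastatic CR1 and metastatic CR2, the 3 tumors of high Lars2. H4 made up 24.3 to 26.2% of the summed member level in the former and 14.8 to 19.9% in the latter, and H2A made up 21.95 to 25.8% and 28.7 to 36.6%. The ratio of H2B to H2A was 0.909 to 1.03 in the former and 0.537 to 0.869 in the latter. The H2B sum includes Hist2h2bb, whose identifier carries a long noncoding RNA and which made up 39.2 of 80.9 CPM in primary CR2. Without it, an alternative chosen after the data were seen, the ratio was 0.666 to 0.809 and 0.276 to 0.622. The H2A sum includes the pseudogene Hist1h2al, with 51.9 of 150.5 CPM in primary CR2 and 113.0 of 412.9 in primary CR1. Shares without Hist1h2al were not computed. The part of library composition, and of how shared reads were assigned, in these shares and ratios was not tested.

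Of the 70 members, 30 formed 15 divergent pairs whose starts lie less than 1000 bases apart, and 14 pairs joined an H2A and an H2B gene. Hist1h2bl (chr13:21715763-21716143) and Hist1h2ai (chr13:21716422-21716814), which share the second promoter above, were the most abundant such pair. Hist1h2bl had 38.9 and 44.7 CPM in primary AS1 and AS2, 87.7 and 96.4 in metastatic AS1 and AS2, 148 and 12.3 in primary CR1 and CR2, and 31.3 and 44.0 in metastatic CR1 and CR2. Hist1h2ai had 32.4 and 35.0 CPM in primary AS1 and AS2, 65.0 and 67.9 in metastatic AS1 and AS2, 107 and 29.1 in primary CR1 and CR2, and 52.3 and 66.2 in metastatic CR1 and CR2. Both genes were highest in primary CR1 and lowest in primary CR2, but Hist1h2bl exceeded Hist1h2ai in the AS tumors and primary CR1 and fell short of it in the other 3. Their ratio was 1.20 to 1.42 in the former and 0.424 to 0.665 in the latter. Between metastases Hist1h2bl had a log2 fold change of -1.28 (SE 0.22, adjusted p = 0.0389) and Hist1h2ai one of -0.16 (SE 0.18, adjusted p = 0.619) by edgeR's quasi-likelihood test (Benjamini-Hochberg). Neither gene has a unique window, so both values depend on how shared reads were assigned. Of the 13 H2A and H2B pairs with both genes tested, 8 had both metastatic CR ratios (H2B to H2A) below both metastatic AS ratios. Both lay above for Hist1h2bf to Hist1h2ad, Hist1h2br to Hist1h2ap and Hist3h2bb-ps to Hist3h2a, and the rest overlapped. Some ratios rest on few counts, such as 18 and 14 for Hist1h2aj in metastatic CR1 and CR2. The share among other gene pairs was not computed.

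**Figure D4:**
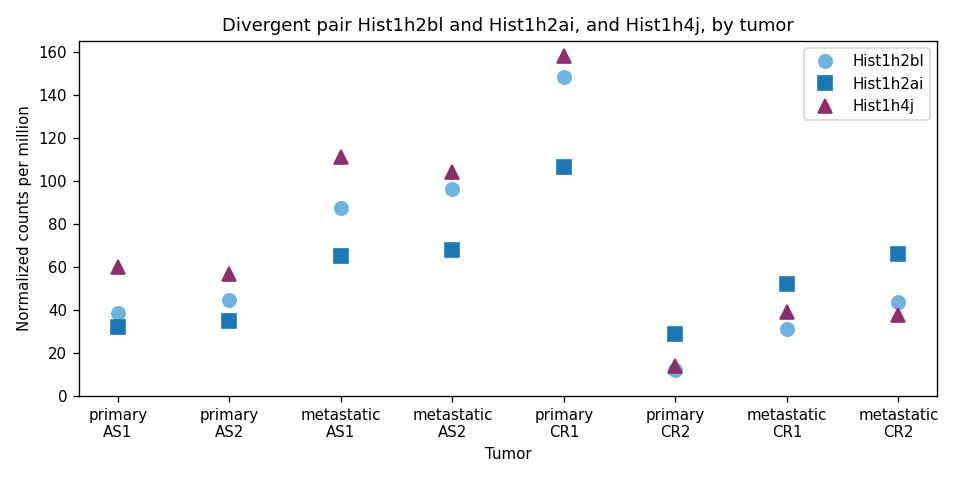
Level in normalized CPM (y axis) of Hist1h2bl, Hist1h2ai and Hist1h4j in each tumor (x axis), 1 point per gene and tumor. Hist1h2bl and Hist1h4j lay above Hist1h2ai in the AS tumors and primary CR1 and below it in primary CR2, metastatic CR1 and metastatic CR2.

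Whether the difference between metastatic and primary tumors itself differed between phenotypes was tested as an interaction. The median interaction was -1.52 over members and -0.05 over all genes. Below 0 were 63 of 68 members, where 10114 of all 18889 genes were below 0. None passed an adjusted p of 0.05 in edgeR's quasi-likelihood test (Benjamini-Hochberg), as did none of 18889 genes (0%), and DESeq2 called 0 members and 0.00314% of all genes. At an unadjusted p under 0.05 there were 3 members (Hist1h2bc, Hist2h3b and Hist4h4), against 2.74% of all genes. Without primary CR2, 17 members passed, all lower, where 0.388% of all genes passed and 0.118% passed as lower. That fit without primary CR2 left primary CR1 as the only primary CR tumor, so this group had no replicate. Primary CR1 was the highest tumor for 60 of 68 members. The calls without primary CR2 therefore cannot be told apart from the level of this lone tumor, and no interaction is concluded from them. With no low-count filter 13 members passed, where 0.681% of all genes passed.

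The genes that make, process and carry histones were read from lists beside the members. Of 21 genes for histone mRNA processing tested, none passed between metastatic and primary tumors, where none of all genes did, and between CR and AS tumors, where 12.2% of all genes passed, 1 rose (Zfp473, a zinc finger protein of histone mRNA 3′ end formation, log2 fold change 1.26) and 1 fell (Ncbp2, a subunit of the cap-binding complex, -1.01). Slbp, which binds the stem-loop, was at 29.9 and 31.6 CPM in primary and metastatic tumors, a log2 fold change of 0.08. Npat, the activator of histone gene transcription at S phase, had 33.1 CPM in AS and 49.9 in CR tumors, a log2 fold change of 0.59 that did not pass (adjusted p = 0.0529 in edgeR's quasi-likelihood test (Benjamini-Hochberg)). Of 20 histone chaperones and related genes tested, none passed between tumor types, while in CR tumors, against the same 12.2% of all genes, Set rose by 0.51 and Rbbp7 changed by -0.73 on the log2 scale.

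Replacement histones are made outside S phase as well, from polyadenylated mRNA. Their summed level was 785 to 1391 CPM in all tumors. Of 11 tested, 0 passed between tumor types and 1 rose in CR tumors, the linker histone H1f0 (log2 fold change 1.15). H3f3b, which encodes H3.3, had 518 and 514 CPM in primary and metastatic tumors, and H2afz had 68.7 and 59.8. Of 40 S phase genes 0 passed between tumor types, with a median log2 fold change of 0.40, and between phenotypes 3 of 40 passed, where 12.2% of all genes did: E2f8 rose while Cdc45 and E2f2 fell. Mki67, a marker of dividing cells, had 41.98 and 102.4 CPM on average in primary and metastatic tumors. Its log2 fold change was 1.29 (SE 0.32). Every metastasis (at least 79.5 CPM) lay above every primary tumor (at most 65.5), where tumor types did not overlap for 1.7% of all genes. Top2a, a topoisomerase of dividing cells, had 59.9 and 114.3, a log2 fold change of 0.93 (SE 0.51), and its tumor types overlapped. Adjusted p was 0.997 for both in edgeR's quasi-likelihood test, in which no gene passed. The summed S phase level ran from 359 CPM in primary AS2 to 767 in primary CR1, the tumor also highest in histone mRNA. Primary CR2, the tumor lowest in histone mRNA, had 409 and was not the lowest in this sum. Nor was primary CR1 the highest in Mki67, where it lay below every metastasis. In Top2a primary CR1 had 137.9 CPM, below metastatic CR2 at 140.6. The ratio of the histone sum to the S phase sum was 1.54 to 2.40 in the AS tumors and primary CR1 and 1.01 to 1.47 in the 3 tumors of high Lars2.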

How the data were processed

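Counts of reads per gene were deposited by the authors for each of the 8 tumors, without normalization. Libraries were made from total RNA with a stranded kit after ribosomal RNA depletion and read as paired ends. The methods describe mapping to mm10 with Bowtie, a single location per read and up to 2 mismatches, whereas the submitters' processing notes name CASAVA 1.8.2, TopHat2 2.0 and GRCm38. The counting tool and annotation are not given in the sources used here.

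Counts were tested in R 4.3.3 with edgeR 4.0.16 (filterByExpr, TMM factors, glmQLFit and glmQLFTest, Benjamini-Hochberg adjustment over all genes tested, threshold 0.05). DESeq2 1.42.0, RLE factors, library totals, no filter, subsets of tumors and each tumor left out were alternatives. CPM are counts divided by TMM-scaled library size, and RPKM divides these by annotated exon length. The scripts were tested on simulated data, with changes placed on randomly chosen genes. Between metastatic and primary tumors the test recovered 5.97% of 2-fold and 59.7% of 4-fold changes. Between CR and AS tumors it recovered 17.9% and 76.1%. A count of 0 members called therefore does not show that levels were unchanged. Members and gene lists were chosen with earlier results of these data known. The rule for named genes took the 3 of highest mean CPM in each class, the 3 of smallest p in each direction and comparison, the members known to be polyadenylated or testis-specific, and, from the other lists, Slbp, Npat, H2afz, Mki67, Top2a and the 3 genes of highest mean of each, and genes outside the members are described only in part. Other genes (Hist1h1b, Hist1h4f, the members called in subsets, list genes that passed) were chosen after their values were seen. GENCODE M21 held 63 members by identifier and 7 by symbol. For members with many counts in every tumor, the spread between tumors sets the precision. Some members had few counts in primary CR2, such as Hist1h2an with 3 and Hist1h2bk with 6, where counting error adds to it. Some prostate markers are not reported here.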

Additional observations from a re-analysis of the deposited data

Results flagged for a closer look

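A tumor was singled out when its gap to the nearest of the other 3 tumors of a group of 4, divided by the range of the group, exceeded the 95% critical value of Dixon's test. Of 124 sets examined, over class sums and named genes in primary, metastatic, AS and CR tumors, 16 met this, and chance alone gives about 1 in 20. These sets share tumors and reads and are not independent.

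Primary CR1 stood apart from the other 3 primary tumors in 8 sets. The summed level was 290.7 CPM in H1, against 77.3 to 102.6, and 412.9 in H2A, against 150.5 to 181.2. Hist1h1e had 62.1 CPM, against 20.3 to 22.8, and Hist2h2bb had 130.6, against 39.2 to 44.1. Hist1h2al had 113.0, against 46.9 to 57.5, Hist1h2ai had 106.6, against 29.1 to 35.0, and Hist1h3h had 114.7, against 9.91 to 26.3. Hist4h4 had 30.3, against 6.13 to 9.02, and it also stood apart among CR tumors at 30.3, against 9.02 to 10.9. Hist2h2ac in primary CR1 had 17.4 CPM, against 10.1 to 10.7 in the other CR tumors.

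Metastatic CR2 stood apart for Hist1h2bc at 63.5 CPM, against 20.7 to 26.3 in the other metastases. For Hist3h2bb-ps it had 2.22 CPM, against 0.355 to 0.468 in the other metastases and 0.468 to 0.606 in the other CR tumors. Metastatic CR1 was low for Hist1h1d at 26.9 CPM, against 39.3 to 39.97. The single count of Hist1h2aa, 0.0160 CPM in primary AS1, was set against 0 in the other primary and AS tumors, so both of its sets had to meet the criterion. Without this gene 14 of 120 sets met it. Primary CR1 also had the lowest share of mitochondrial ribosomal RNA, 2.53% of counts against 10.4 to 23.8% in the other 7 tumors, and its part in these values was not tested.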

How the results depend on the processing

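The count of 0 members between metastatic and primary tumors held in every alternative run, DESeq2 included. Between CR and AS tumors the 1 member called (Hist2h2be) became 4 with DESeq2, 5 with no low-count filter, 8 in metastases only, 0 in primary tumors only and 36 without the 3 tumors of high Lars2, and it ranged from 1 to 25 without each tumor in turn, with 25 only without primary CR1. The interaction had 0 members called, 13 with no low-count filter, and 0 to 17 without each tumor in turn, with 17 only without primary CR2. The median log2 fold change of members between metastatic and primary tumors (0.30) was 1.12 in AS tumors only and -0.35 in CR tumors only, and ranged from 0.064 to 1.10 without each tumor in turn. Between CR and AS tumors the median (0.35) was 1.69 without the 3 tumors of high Lars2 and ranged from -0.52 to 0.57 without each tumor in turn, negative only without primary CR1. It was -0.32 in metastases only and 0.14 over members with at least 50% unique windows, Hist2h2bb included. Hist2h2be lost its call in primary tumors only (-1.26) and without the 3 tumors of high Lars2 (-1.15). Between metastatic and primary tumors the median of all genes moved by 0.19 with DESeq2 and 0.13 with no low-count filter, and between CR and AS tumors by 0.29 and 0.12, and by -0.11 with library totals only. No paired analysis was possible because the labels do not say which primary tumor each metastasis matches. The alternative without the 3 tumors of high Lars2 was chosen after seeing the data. For the interaction, leaving out a tumor left its group with a single tumor. Without primary CR2 that tumor was primary CR1, so the calls of that fit rest on a group with no replicate. No cause of any of these changes was tested. Depth limits the genes with few counts, such as Hist1h1t and Hist1h2aa, and tested members with few counts in primary CR2, such as Hist1h2an (3 counts).

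Between metastatic and primary tumors, the sign of the log2 fold change of named genes changed with RLE factors for Hist2h3c2 0.0048. It changed in AS tumors only for Hist2h2bb 0.55, Hist2h3c2 1.06, Hist4h4 0.75, Hist2h2ac 0.58 and Hist2h4 0.39. It changed in CR tumors only for Hist1h1c -0.15, Hist1h1d -0.26, Hist1h2al -0.18, Hist1h2ai -0.16, Hist1h2bl -1.05, Hist1h3h -0.91, Hist1h3f -0.55, Hist1h4j -1.13, Hist1h4d -0.10 and Hist1h4h -0.30. It changed with library totals only for Hist2h2ac 0.023 and Hist2h4 0.00095. It changed with no low-count filter for Hist1h2al -0.048, Hist1h3h -0.0074 and Hist1h4j -0.028. It changed with phenotype as a covariate for Hist2h2bb 0.016, Hist2h3c2 0.091, Hist1h4j -0.14 and Hist2h2ac 0.091. It changed without the 3 tumors of high Lars2 for Hist1h2al -0.13, Hist2h2be 0.23 and Hist2h4 0.12. Between CR and AS tumors, the sign of the log2 fold change of named genes changed with library totals only for Hist1h2bc -0.0022 and Hist1h4d -0.012. It changed in metastases only for Hist1h1c -0.19, Hist1h1d -0.26, Hist1h2ai -0.16, Hist2h2bb -0.023, Hist1h3h -0.87, Hist2h3c2 -0.59, Hist1h3f -0.56, Hist1h4d -0.40, Hist4h4 -0.12 and Hist1h2ba -0.43. It changed with no low-count filter for Hist1h2bc -0.071 and Hist1h4d -0.033. It changed with no tumor type term for Hist1h4d -0.0069. It changed in primary tumors only for Hist1h2bl 0.95, Hist1h2bc -0.78, Hist1h4j 0.56, Hist1h4h 0.22 and Hist2h4 0.18. It changed without the 3 tumors of high Lars2 for Hist1h2bl 1.83, Hist1h2bc -0.44, Hist1h4j 1.44, Hist1h4h 0.92 and Hist2h4 0.70. Without each tumor in turn, log2 fold changes between metastatic and primary tumors that changed sign ranged as Hist1h1c -0.039 to 0.52, Hist1h1d -0.0085 to 1.08, Hist1h2al -0.13 to 0.39, Hist1h2bl -0.23 to 1.02, Hist2h2bb -0.22 to 0.55, Hist1h3h -0.26 to 1.14 and Hist2h3c2 -0.32 to 1.06. The others ranged as Hist1h3f -0.12 to 1.02, Hist1h4j -0.31 to 0.74, Hist1h4h -0.088 to 0.56, Hist4h4 -0.54 to 0.52, Hist2h2be -0.60 to 0.12, Hist2h2ac -0.22 to 0.40 and Hist2h4 -0.23 to 0.23. Without each tumor in turn, log2 fold changes between CR and AS tumors that changed sign ranged as Hist1h1c -0.33 to 0.32, Hist1h1d -0.53 to 0.62, Hist1h2ai -0.19 to 0.63, Hist3h2a -0.16 to 0.41, Hist1h2bl -1.48 to 0.23 and Hist2h2bb -0.073 to 0.69. The others ranged as Hist1h2bc -0.53 to 0.37, Hist1h3h -1.08 to 0.50, Hist2h3c2 -0.84 to 0.72, Hist1h3f -0.77 to 0.48, Hist1h4d -0.72 to 0.30 and Hist1h2ba -0.87 to 0.51.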

Other observations

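The 4 members known to make polyadenylated mRNA as well (Hist1h1c, Hist1h2bc, Hist2h2be and Hist3h2a) summed to 106.0 and 125.7 CPM in primary AS1 and AS2 and 156.3 and 147.5 in metastatic AS1 and AS2. In CR tumors the sum was 176.2 and 69.8 in primary CR1 and CR2 and 110.6 and 196.1 in metastatic CR1 and CR2. Within these 4, Hist2h2be was low in every CR tumor, and Hist1h2bc was highest in metastatic CR2.

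Base composition of the genes was set beside the difference between CR and AS metastases. Across 67 members with an annotation match, Spearman's rho of the log2 fold change with GC content was -0.03, with transcript length 0.18 and with the share of unique windows 0.03. Across 14072 other protein-coding genes tested, rho was -0.28 with GC content and 0.22 with length. Over all 8 tumors rho between CR and AS was 0.21 with GC content and -0.01 with length across the members, and -0.26 and 0.13 across 13617 other protein-coding genes. Genes are not independent replicates, and all points of a comparison share the same libraries.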
